A study of Mus musculus with 8 samples.

Results

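Genes of ribosome biogenesis and the nucleolus were followed in TTE3 cells, a mouse testicular Sertoli cell line, over a day at 39 °C. The 50 genes were listed by symbol, and each probe set whose current or older symbol matched was taken. A probe set of their own was found for 46 of the 50, out of 7707 genes tested in all, and these 46 had 80 probe sets, of which 79 were bright enough to test. The third probe set of Ddx18 was too dim. Dkc1, Wdr3 and Nob1 had no probe set with a single gene symbol and were not measured here. Mrto4 was matched only by a probe set shared with 2 pseudogenes, so it is given no value.

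The line was derived from transgenic mice whose transgene is the large T-antigen of simian virus 40 in a temperature-sensitive form, and 39 °C is the nonpermissive temperature, at which such an antigen does not work. Cells were kept at 39 °C for 0, 6, 12 or 24 h, with 2 arrays for each time and 8 arrays in all. The 0 h cells are the control, and they carry the same transgene. The promoter of the transgene, the number of clones behind the line and the temperature of the 0 h cultures are not given in the sources read here. Effects of heat, of the state of the antigen and of the hours in culture cannot be told apart in this design. Total RNA was labelled and measured on the Mouse Expression Array 430A of Affymetrix, and the signal of a probe set is its brightness in arbitrary units. The series title names the question as the genes of cell differentiation brought on by the nonpermissive temperature.

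Ribosomes are built in the nucleolus. RNA polymerase I transcribes the long precursor of the ribosomal RNAs there, small nucleolar ribonucleoproteins (snoRNPs) methylate and pseudouridylate it, and large sets of assembly factors cut, fold and load it with ribosomal proteins to form the small and large subunits. The demand for this machinery is high in growing and dividing cells, and MYC, which binds the E-box CACGTG with its partner MAX, is a known activator of many of its genes.

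The trimmed mean signal, with 2% of values removed at each end, lay between 500.179 and 500.204 on all arrays, and median signals ran from 138 to 154. The arrays were scaled to a common mean, so a change in the total RNA per cell is not visible, and fewer cells of a type and less RNA per cell cannot be told apart. Over probe sets, which do not count as independent replicates, log2 signals of arrays of the same time correlated with r of 0.9788 to 0.9858, and those of different times with 0.9666 to 0.9787. The ratio of 3' to 5' signal, a sign of RNA integrity, was 1.03 to 1.13 for actin and 0.717 to 0.805 for Gapdh. Of 20 Sertoli markers 18 had a probe set. Above the brightness limit used for testing were 10, among them Sox9, Wt1, Gata4, Nr5a1 and Kitl. Amh, at 3.5 to 13.8 units, and Fshr, at 9.9 to 63.5 units, were not, and neither were Dhh, Dmrt1 and Gata1. The summed Sertoli signal was 24985 to 25366 at 0 h and 25199 to 25758 at 24 h. In between it was 22618 to 27480 at 6 h and 28401 to 28811 at 12 h. Most of the 0 h and 24 h sums came from Vim, at 18399 and 17993 and at 15560.4 and 15826. At 24 h Clu was 2.71-fold and Inhbb 1.42-fold higher and Inhba 2.003-fold lower than at 0 h, all 3 called. All 8 germ cell markers and all 4 endothelial markers were below the limit on average. Of 5 peritubular and smooth muscle markers 2 were above it, Acta2 and Des, and neither was called. Their list summed to 283 to 347 at 0 h, 273 to 510 at 12 h and 271 to 359 at 24 h. Summed endothelial signal was 146 to 148 at 0 h and 181 to 213 at 24 h, summed Leydig signal 96.8 to 158 and 248 to 326, and summed macrophage signal 514 to 596 and 601 to 620. Most of each rise came from a single gene. Pecam1 went from 10.9 and 9.5 to 55.6 and 70.7 units. Star went from 74.6 and 134.5 to 229.9 and 287.2, called higher, and the other Leydig markers measured were below the limit. Cd68 went from 175.9 and 224.9 to 321 and 299.1, called higher. Csf1r went from 164 and 169.6 to 120.2 and 125.2, not called. The part of these small signals in the results was not tested.

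Messages of ribosome biogenesis fell in TTE3 cells, mostly between 6 and 12 h, and most stayed down or fell further at 24 h. At 24 h 40 of the 46 genes were called lower than at 0 h and 1 was called higher, Nop10, a small protein of the pseudouridylating snoRNPs. Calls are limma's moderated contrasts with an adjusted p below 0.05, adjusted over all tested probe sets, on each gene's brightest tested probe set. Among all 7707 genes 16.6% were called lower and 18.6% higher in that comparison. The 46 genes were chosen with earlier results of these data known. The 40 include Pes1, whose 2 probe sets were called in opposite directions, and Wdr12, Ebna1bp2 and Nip7, whose second probe sets were not called. The median log2 change of the 46 genes at 24 h was -0.86, against 0.02 for all genes tested. At 12 h 31 of the 46 were called lower and 1 higher, where all genes gave 12% and 13.3%, and the median was -0.56 against 0.02. At 6 h, by contrast, 3 of the 46 were lower and 2 higher, where all genes gave 9.33% and 9.15%, so the share at 6 h was near the background. The median at 6 h was -0.15 against 0.01. By limma's F-test over all 4 times, 44 of the 46 changed, against 42% of all genes. Without replicate 1 or without replicate 2 of 0 h, 1 gene was called lower at 6 h, and without replicate 2 of 6 h 5 were. The labels do not say that the 2 samples of a time were separate cultures, so a p-value here sets a change against the spread between these samples alone, and that spread may be technical.

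The arrays themselves showed the same order. In 44 of the 46 genes, as the heat map of log2 changes by array shows, both 24 h arrays were below both 0 h arrays, in 41 both 12 h arrays were, and in 24 both 6 h arrays were. Among all genes tested, 35.3%, 31.8% and 29.7% did so at 24, 12 and 6 h. Averaged over the 46 genes and set against the 0 h mean, the log2 level of the 6 h arrays was -0.083 and -0.129. It was -0.52 and -0.54 on the 12 h arrays and -0.76 and -0.82 on the 24 h arrays. Both arrays of each time lay close together, and no array of one time reached into the next. With each array centred on its median instead of used as deposited, the median of the 46 genes at 24 h was -0.97 and that of all genes tested -0.09.

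**Figure D1:**
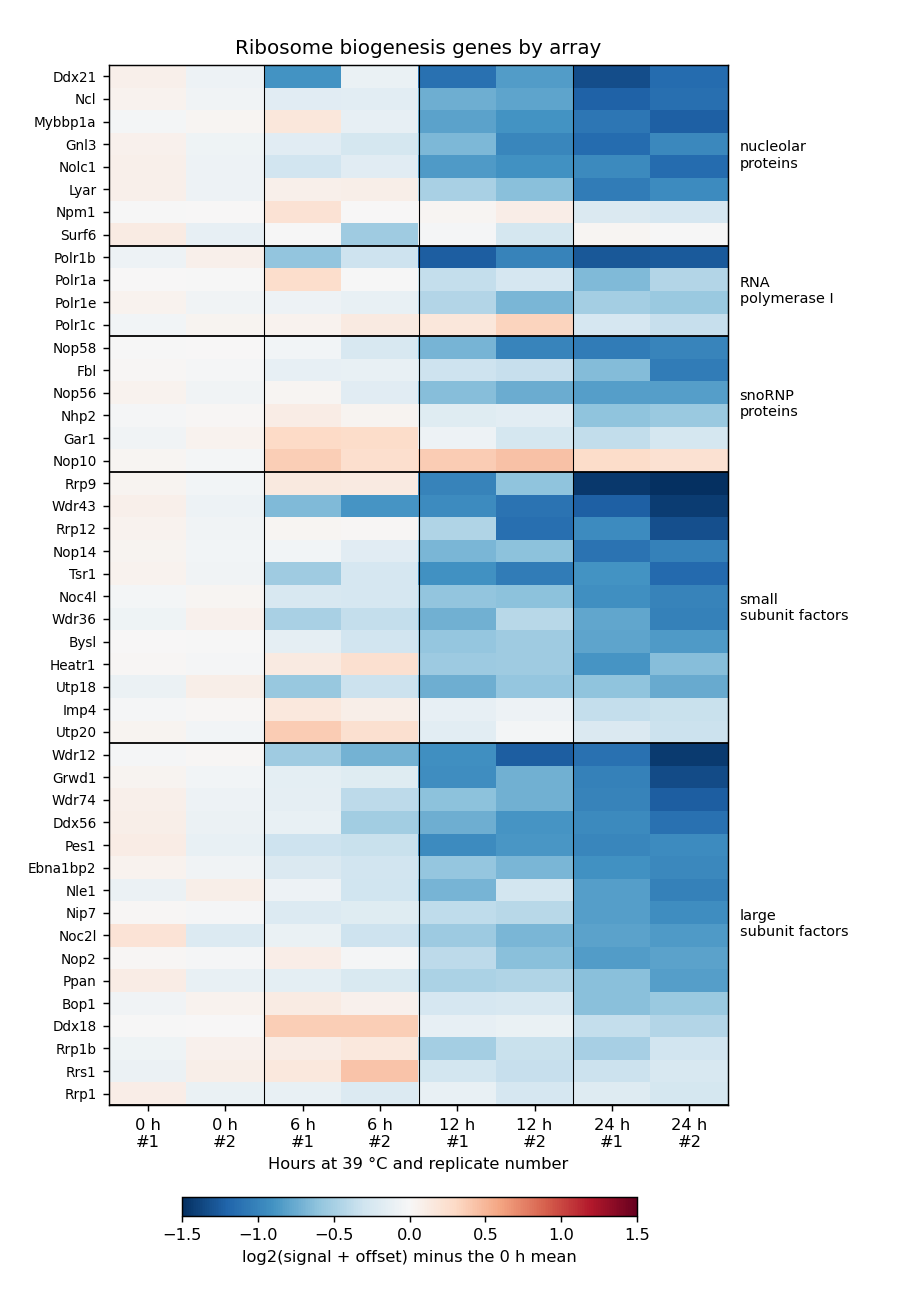
Log2 change from the 0 h mean of the 46 genes (rows, grouped by role) on each of the 8 arrays (columns, 2 for each of 0, 6, 12 and 24 h), in colour. The 6 h columns are mixed, the 12 h and 24 h columns are mostly lower (blue), and Nop10 is higher at each later time.

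Directly between neighbouring times, 22 of the 46 genes fell from 6 to 12 h, with 3.58% of all genes called lower and 4.93% higher, and the median difference was -0.45. From 12 to 24 h 8 fell, with 3.27% of all genes called lower and 4.09% higher, and the median difference was -0.26. In neither step did limma call any of the 46 higher, and at an unadjusted p below 0.05 the count of higher genes was also 0 in both. The 8 called lower from 12 to 24 h were Ncl, Lyar, Polr1c, Fbl, Nhp2, Rrp9, Nop14 and Nip7. On their brightest probe sets, Polr1c had not fallen before 12 h, and Fbl, Nhp2 and Nip7 were not called from 6 to 12 h. Second probe sets of Fbl and Nhp2 were called lower from 6 to 12 h, at -0.52 (adjusted p = 0.00722) and -0.45 (adjusted p = 0.0176). These step counts rest on few arrays. Without replicate 1 of 12 h 12 genes, and without replicate 2 of 12 h 8 genes, fell from 6 to 12 h. From 12 to 24 h the count was 3 without either 0 h array, 13 without either 6 h array, 2 and 0 without replicate 1 and 2 of 12 h, and 1 and 0 without replicate 1 and 2 of 24 h.

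Ordered by course, 3 genes were called lower than at 0 h at all of 6, 12 and 24 h: Wdr43, Utp18 and Wdr12, the last on its brighter probe set alone. A further 28 were lower at 12 and 24 h and not called at 6 h. Another 9 were called lower at 24 h alone: Polr1a, Polr1c, Fbl, Gar1, Nhp2, Imp4, Bop1, Ddx18 and Nle1. This order holds for the brightest probe set of each gene: 4 of the 9, Fbl, Nhp2, Imp4 and Ddx18, had a second probe set called lower at 12 h as well. The other 6, Npm1, Surf6, Nop10, Utp20, Rrp1 and Rrs1, were at no time called lower than at 0 h. Of the 46 genes 41 had their lowest mean at 24 h, and 16 were called and at least 2-fold lower there, with a log2 change below -1. Among all 7707 genes tested, 134 were called and at least 2-fold lower at 24 h. The courses and the time of the lowest mean were not counted over all genes. In the 40 genes lower at 24 h, the median share of the 24 h log2 change already reached was 15.8% at 6 h and 67.3% at 12 h. In 14 of these 40 the log2 change at 6 h was 0 or above.

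The promoters of the genes were searched for 3 motifs, the E-box, an ETS motif and the palindromic NRF1 motif, as exact letters on both strands. RefSeq promoters of assembly GRCm38.p6, from 250 bases before to 50 after the start of transcription, were at hand for 40 of the 46 genes, in 44 windows. The E-box CACGTG stood in 10 of the 44 windows, 22.7%, against 18.7% of 123 windows of further genes of the pathway, 10.5% of windows of the genes tested and 7.15% of all 32851 windows. The ETS motif CCGGAAGT stood in 31.8%, against 22.8%, 8.87% and 3.89%, and the NRF1 motif in 0 of 44, against 3.25%, 2.13% and 0.971%. Median GC content was 58% in the 44 windows, 58.67% in those of the further pathway genes and 61.33% in the windows of the genes tested. These shares are descriptions with no test, and a match is not shown to be a bound site. The E-box of each of the 10 genes is printed as 30 bases of the gene's own strand, with the motif in capitals, and followed by the ETS matches of the 2 genes that held both motifs.
Mybbp1a (chr11:72441347-72441376, plus strand): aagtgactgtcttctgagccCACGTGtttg
Wdr43 (chr17:71616220-71616249, plus strand): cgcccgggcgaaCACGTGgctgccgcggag
Utp18 (chr11:93885769-93885798, minus strand): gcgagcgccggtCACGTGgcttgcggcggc
Utp20 (chr10:88826765-88826794, minus strand): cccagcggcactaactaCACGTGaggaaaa
Imp4 (chr1:34439696-34439725, plus strand): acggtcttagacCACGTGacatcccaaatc
Tsr1 (chr11:74898092-74898121, plus strand): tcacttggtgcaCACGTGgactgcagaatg
Pes1 (chr11:3963965-3963994, plus strand): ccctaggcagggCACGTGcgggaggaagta
Nop2 (chr6:125131811-125131840, plus strand): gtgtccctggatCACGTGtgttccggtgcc
Grwd1 (chr7:45830740-45830769, minus strand): aagggccggagtcgCACGTGtgaaaccgga
Nle1 (chr11:82908355-82908384, minus strand): tcggttctcctcCACGTGgggacgcaggat
Tsr1, ETS (chr11:74898067-74898096, plus strand): gctcgggtccgcCCGGAAGTagagttcact
Grwd1, ETS (chr7:45830811-45830840, minus strand): gggaggtgaaacCCGGAAGTgacgctctca

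Genes with and without these letters overlapped in how far they fell. The 10 E-box genes had a median log2 change of -0.94 at 24 h, from -1.32 for Wdr43 to -0.27 for Utp20, and 9 of them were called lower. Pes1 is among these 9 on its brighter probe set, while its dimmer one was called higher. The 30 genes whose window lacked it had a median of -0.86, and 27 were called lower. For the 13 genes with the ETS letters the median was -0.76 with 12 lower, and for the 27 without them -0.96 with 24 lower. In the 19 genes with neither motif, which include Rrp9, the gene with the greatest fall, 17 were lower.

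Of the 8 nucleolar proteins 6 fell at 12 h and at 24 h, with role medians of -0.79 and -1.06. Ncl is nucleolin, an abundant RNA-binding protein of the nucleolus that takes part in transcription and processing of the precursor. Its signal was 10058 and 9356 units at 0 h, 8608 and 8719.9 at 6 h, 5836 and 5599.7 at 12 h and 4180.1 and 4425 at 24 h. The groups did not overlap, and each later time lay lower than the one before. Ncl changed by -0.16 ± 0.09 (log2, ± standard error of the fit) at 6 h, with an adjusted p of 0.229, and fell by 0.76 ± 0.09 at 12 h (adjusted p = 0.000194) and by 1.17 ± 0.09 at 24 h (adjusted p = 5.07e-06). All 4 probe sets of Ncl were called lower at 24 h, with log2 changes from -1.71 to -1.07, and 1 of the 4 was called lower at 6 h as well, at -0.46 ± 0.12 (adjusted p = 0.0243).

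Ddx21, an RNA helicase that links transcription by RNA polymerase I to processing, had signals of 1692 and 1518 at 0 h, 853 and 1497 at 6 h, 727 and 884 at 12 h and 622 and 707 at 24 h. The 2 arrays at 6 h lay far apart, one near the 0 h level and the other near the 12 h level. Ddx21 fell by 0.98 ± 0.21 at 12 h (adjusted p = 0.00622), a call that ended without replicate 1 of 0 h, and by 1.25 ± 0.21 at 24 h, a 2.37-fold fall (adjusted p = 0.000988). Mybbp1a, a nucleolar protein that binds MYB and represses transcription by RNA polymerase I, had 4135 and 4341 at 0 h, 4754.5 and 3879.9 at 6 h, 2418 and 2266 at 12 h and 1987 and 1796 at 24 h. The 6 h arrays lay on either side of the 0 h arrays, and the drop came between 6 and 12 h. Its fall was 0.85 ± 0.11 at 12 h and 1.16 ± 0.11 at 24 h (adjusted p = 2.66e-05).

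Gnl3, or nucleostemin, is a GTPase of the nucleolus known from stem and dividing cells. Its signals were 1867 and 1717 at 0 h, 1589 and 1483 at 6 h, 1118 and 901 at 12 h and 792 and 903 at 24 h, and the 12 h and 24 h arrays overlapped. Gnl3 fell by 0.82 ± 0.12 at 12 h and 1.06 ± 0.12 at 24 h (adjusted p = 9.11e-05). Nolc1, a chaperone of snoRNPs, fell by 0.88 ± 0.11 and 1.06 ± 0.11 at the same times. Lyar, a nucleolar zinc finger protein, fell by 0.56 ± 0.10 and 0.99 ± 0.10. Npm1, nucleophosmin, an abundant nucleolar chaperone, was not called, with log2 changes of 0.07 ± 0.10 at 12 h and -0.23 ± 0.10 at 24 h (adjusted p = 0.0818). Nor was Surf6, at -0.14 and 0.01 ± 0.20.

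On their brightest probe sets, all 4 subunits of RNA polymerase I that were measured fell by 24 h, and 2 of them by 12 h. Second probe sets of Polr1a, Polr1c and Polr1e were not called at 24 h. Polr1b, the second largest subunit and part of the catalytic core, had 440.4 and 491 units at 0 h, 302 and 369.7 at 6 h, 184 and 220.2 at 12 h and 180.3 and 181 at 24 h. No later array reached the 0 h range, and 12 h and 24 h lay side by side. Polr1b changed by -0.45 ± 0.15 at 6 h (adjusted p = 0.0662) and fell by 1.12 ± 0.15 at 12 h and 1.26 ± 0.15 at 24 h (adjusted p = 0.000125). Polr1e, a subunit of the dimer that helps initiation and elongation, had 436 and 405 at 0 h, 398 and 388 at 6 h, 305 and 254 at 12 h and 289 and 279 at 24 h. It fell by 0.56 ± 0.14 at 12 h (adjusted p = 0.0122) and by 0.53 ± 0.14 at 24 h (adjusted p = 0.0112). Its second probe set fell by 0.71 ± 0.16 at 12 h (adjusted p = 0.00903). At 24 h that probe set changed by -0.445 ± 0.16, which was not called (adjusted p = 0.054).

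Polr1a, the largest subunit, had 697 and 692 units at 0 h, 841 and 692 at 6 h, 535 and 578.5 at 12 h and 432 and 507 at 24 h. The 6 h arrays were at or above the 0 h level, and both later times were below it. Polr1a fell by 0.55 ± 0.13 at 24 h (adjusted p = 0.00786) and was not called at 12 h. Polr1c, which RNA polymerase III also uses, had 1304 and 1381.5 at 0 h, 1395 and 1481 at 6 h, 1509 and 1696.5 at 12 h and 1126 and 1051 at 24 h. Both 12 h arrays were above 0 h and both 24 h arrays below it. From 12 to 24 h Polr1c fell by 0.55 ± 0.10 (adjusted p = 0.0126), and against 0 h it fell by 0.30 ± 0.10 at 24 h (adjusted p = 0.0459). Its second probe set was called in neither comparison. It changed by -0.09 ± 0.12 from 12 to 24 h (adjusted p = 0.717) and by -0.23 ± 0.12 against 0 h (adjusted p = 0.174). Single arrays decided several of these calls. The 12 h call of Polr1e ended without either 0 h array or replicate 2 of 12 h, and its 24 h call without replicate 1 of 0 h or either 24 h array. The 24 h call of Polr1a ended without replicate 1 of 0 h or of 24 h, and that of Polr1c without any single 0 h or 24 h array, with quantile normalization and with 3 other settings.

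**Figure D2:**
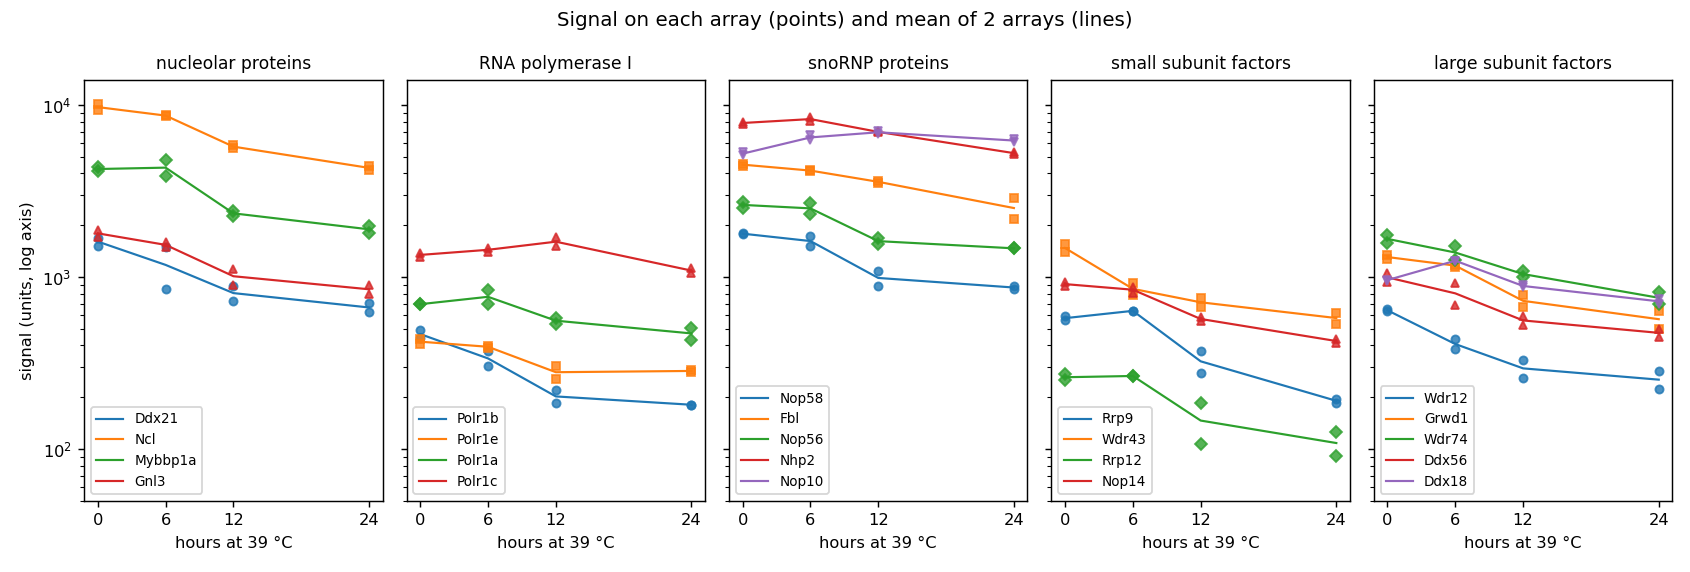
Signal (log axis, arbitrary units) by hours at 39 °C of the genes of each role whose array values are given in the text, Pes1 aside, with a point for each array and a line through the mean of the 2 arrays of a time. Ncl, Polr1b and Rrp9 end lowest at 24 h, and Nop10 lies higher at 6, 12 and 24 h than at 0 h; levels of different genes are not comparable, since each probe set has its own brightness.

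The snoRNP proteins split. Of the 6 measured, 5 fell by 24 h, 2 of these by 12 h, and Nop10 rose. The count of 2 rests on the brightest probe sets, since a second probe set of Fbl and of Nhp2 was also called lower at 12 h. Fbl, Nop56 and Nop58 belong to the methylating, box C/D particles. Nop58, a core scaffold, had 1776 and 1793 units at 0 h, 1728 and 1504 at 6 h, 1088 and 885 at 12 h and 848 and 888 at 24 h. Its 6 h arrays lay near 0 h and the later arrays well below. Nop58 fell by 0.85 ± 0.12 at 12 h and 1.02 ± 0.12 at 24 h (adjusted p = 9.25e-05). Nop56, the partner scaffold, had 2723 and 2521, then 2676 and 2329.7, 1679.8 and 1549.6, and 1468 and 1465 at the 4 times. It fell by 0.69 ± 0.10 at 12 h and 0.83 ± 0.10 at 24 h (adjusted p = 0.00014). Fbl, fibrillarin, the methyltransferase, had 4561 and 4426.5, then 4136 and 4164, 3619.6 and 3522, and 2860.5 and 2168. On this probe set each later time lay below the one before, and the steepest step was the last. Its change of -0.33 ± 0.12 at 12 h was not called (adjusted p = 0.0665), and at 24 h it fell by 0.85 ± 0.12 (adjusted p = 0.000322). The second probe set of Fbl had 2877 and 2759 units at 0 h, 2837 and 2759 at 6 h, 1919 and 1981 at 12 h and 1538 and 1534 at 24 h. There the steepest step was from 6 to 12 h, and it was called lower at 12 h, by 0.53 ± 0.09 (adjusted p = 0.0017), and at 24 h, by 0.87 ± 0.09.

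Gar1, Nhp2 and Nop10 belong to the pseudouridylating, box H/ACA particles, whose enzyme, Dkc1, was not measured here. Nhp2 had 7756 and 7938.5 units at 0 h, 8469 and 8068 at 6 h, 6915 and 7017 at 12 h and 5157 and 5327 at 24 h. It was above the 0 h range at 6 h and below it afterwards. Nhp2 fell by 0.58 ± 0.08 at 24 h (adjusted p = 0.000412), and its second probe set fell by 0.43 ± 0.09 at 12 h (adjusted p = 0.00726) and 0.70 ± 0.09 at 24 h. Nop10 had 5303 and 5106.5, then 6720.3 and 6218, 6802 and 7058.5, and 6321 and 6088, so all 6 later arrays were above both 0 h arrays. It rose by 0.31 ± 0.09 at 6 h (adjusted p = 0.0318), 0.41 ± 0.09 at 12 h (adjusted p = 0.00656) and 0.25 ± 0.09 at 24 h (adjusted p = 0.0473). The 6 h call of Nop10 ended in 9 of 18 alternative settings, among them median-centred arrays and leaving out either 0 h array, replicate 1 of 6 h or either 24 h array. The 12 h call ended without replicate 2 of 0 h, and the 24 h call in 10 settings, including any single array of 0, 12 or 24 h left out. Its second probe set was called higher at 12 h, by 0.28 ± 0.09 (adjusted p = 0.0393), and changed by 0.07 at 24 h. With median-centred arrays the 24 h change of Nop10 was 0.15. Gar1 changed by -0.17 at 12 h and fell by 0.32 ± 0.11 at 24 h (adjusted p = 0.0368), a call that ended without any single 0 h or 24 h array.

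The factors of the small subunit fell broadly, with 10 of 12 lower at 12 h and 11 at 24 h and role medians of -0.63 and -0.93. Rrp9, which binds the U3 snoRNA needed for the first cuts of the precursor, had 593 and 559 units at 0 h, 637 and 633 at 6 h, 276 and 370.2 at 12 h and 196.5 and 184.5 at 24 h. The 6 h arrays stood above 0 h, and the 12 h and 24 h arrays fell away in steps that did not overlap. Rrp9 changed by 0.14 at 6 h (adjusted p = 0.558) and fell by 0.81 ± 0.15 at 12 h (adjusted p = 0.00252) and 1.49 ± 0.15 at 24 h (adjusted p = 2.78e-05), a 2.81-fold fall. From 12 to 24 h alone it fell by 0.69 ± 0.15 (adjusted p = 0.0201). Wdr43, a factor of the complex that binds the precursor as it is transcribed, had 1552.5 and 1392.5 at 0 h, 921 and 784 at 6 h, 752 and 672 at 12 h and 618.5 and 535 at 24 h. In contrast to Rrp9, the first step was the greatest, and no groups overlapped. Wdr43, whose E-box site is printed above, fell by 0.78 ± 0.13 at 6 h (adjusted p = 0.0022), 1.03 ± 0.13 at 12 h and 1.32 ± 0.13 at 24 h (adjusted p = 2.44e-05). It was the 1 gene of the 46 called lower at 6 h under all 18 alternative settings.

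Nop14, which helps the small subunit mature and leave the nucleolus, had 933 and 884 units at 0 h, 879 and 806 at 6 h, 556 and 584 at 12 h and 411 and 437 at 24 h. It fell in steps without overlap, by 0.65 ± 0.11 at 12 h and 1.06 ± 0.11 at 24 h (adjusted p = 4.08e-05). Rrp12, which serves the export of both subunits, was dim and spread more widely, with 272 and 251 at 0 h, 267 and 264 at 6 h, 185 and 107 at 12 h and 125 and 91.2 at 24 h. The 12 h and 24 h arrays overlapped. Rrp12 fell by 0.79 ± 0.23 at 12 h (adjusted p = 0.0272) and 1.13 ± 0.23 at 24 h (adjusted p = 0.00302), and the 12 h call ended without either 0 h array or replicate 2 of 12 h. Without the latter array the 12 h change was -0.45.

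The other small-subunit factors are given by their log2 changes at 12 and 24 h. Tsr1, a late assembly factor resembling a GTPase, fell by 0.98 and 1.03. Noc4l, the partner of Nop14, fell by 0.60 and 0.96, and Wdr36, a component of the same early complex as Utp18, fell by 0.57 and 0.90. Bysl, bystin, a late factor, fell by 0.55 and 0.82, and Heatr1, needed for transcription and early cuts, by 0.54 and 0.76. Utp18 fell by 0.66 and 0.68 and had been called at 6 h as well, at -0.44 ± 0.13 (adjusted p = 0.0341). Imp4, of the U3 particle, changed by -0.10 at 12 h (adjusted p = 0.524) and fell by 0.34 ± 0.10 at 24 h (adjusted p = 0.0264) on its brighter probe set. Its dimmer probe set, with 172 and 145 units at 0 h, 85.0 and 119 at 6 h, 56.8 and 25.4 at 12 h and 89.3 and 55.1 at 24 h, fell by 1.56 ± 0.31 at 12 h (adjusted p = 0.00394) and 0.96 ± 0.31 at 24 h (adjusted p = 0.0322). Both probe sets of Imp4 were thus lower at 24 h, and at 12 h they differed. Utp20 was not called, at 0.31 ± 0.11 at 6 h (adjusted p = 0.0631), -0.10 at 12 h and -0.27 ± 0.11 at 24 h (adjusted p = 0.0681). The 6 h call of Utp18 ended in 8 settings, including either 0 h array, replicate 1 of 6 h or either 24 h array left out. The 12 h calls of Wdr36 and Heatr1 ended without either 0 h array, that of Wdr36 also without replicate 1 of 12 h, and the 24 h call of Imp4 without any single 0 h or 24 h array.

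Of the 16 factors of the large subunit 11 fell by 12 h and 14 by 24 h, with role medians of -0.50 and -0.86. Wdr12, Pes1 and Bop1 form the PeBoW complex, which is required to process the precursor of the large-subunit RNA. Wdr12 had 632 and 648 units at 0 h, 433 and 381 at 6 h, 329 and 259.5 at 12 h and 282.5 and 223 at 24 h. All later arrays were below 0 h, and 12 h and 24 h overlapped. Wdr12 fell by 0.63 ± 0.16 at 6 h (adjusted p = 0.0181), 1.07 ± 0.16 at 12 h (adjusted p = 0.000728) and 1.28 ± 0.16 at 24 h (adjusted p = 0.000125). The 6 h call ended without either 0 h array or replicate 2 of 6 h. With the mean of its probe sets Wdr12 changed by -0.014 at 6 h, which was not called, and by -0.57 and -0.61 at 12 and 24 h, which were. Its second, dimmer probe set, with 112 and 120 units at 0 h, 183 and 191 at 6 h, 96.9 and 122 at 12 h and 105 and 142 at 24 h, was not called, and its log2 change at 24 h was 0.07 ± 0.20.

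Pes1, pescadillo, had probe sets called in opposite directions. The brighter had 1837 and 1581 units at 0 h, 1369 and 1344 at 6 h, 879 and 922 at 12 h and 857 and 876 at 24 h. The dimmer had 102 and 148 at 0 h, 371 and 334 at 6 h, 313 and 387 at 12 h and 356 and 379 at 24 h. In both, no later array reached the 0 h range, but the first lay below it and the second above. The brighter changed by -0.32 ± 0.11 at 6 h (adjusted p = 0.0544) and fell by 0.90 ± 0.11 at 12 h and 0.96 ± 0.11 at 24 h (adjusted p = 6.14e-05), while the dimmer rose by 1.36 ± 0.18, 1.35 ± 0.18 and 1.42 ± 0.18 (adjusted p = 0.000142 at 24 h). Both were annotated to the same transcript, so the direction for Pes1 is uncertain, and the mean of both probe sets gave a log2 change of 0.23 at 24 h. Bop1, the third partner, changed by -0.24 at 12 h (adjusted p = 0.0899) and fell by 0.59 ± 0.10 at 24 h (adjusted p = 0.000833).

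**Figure D3:**
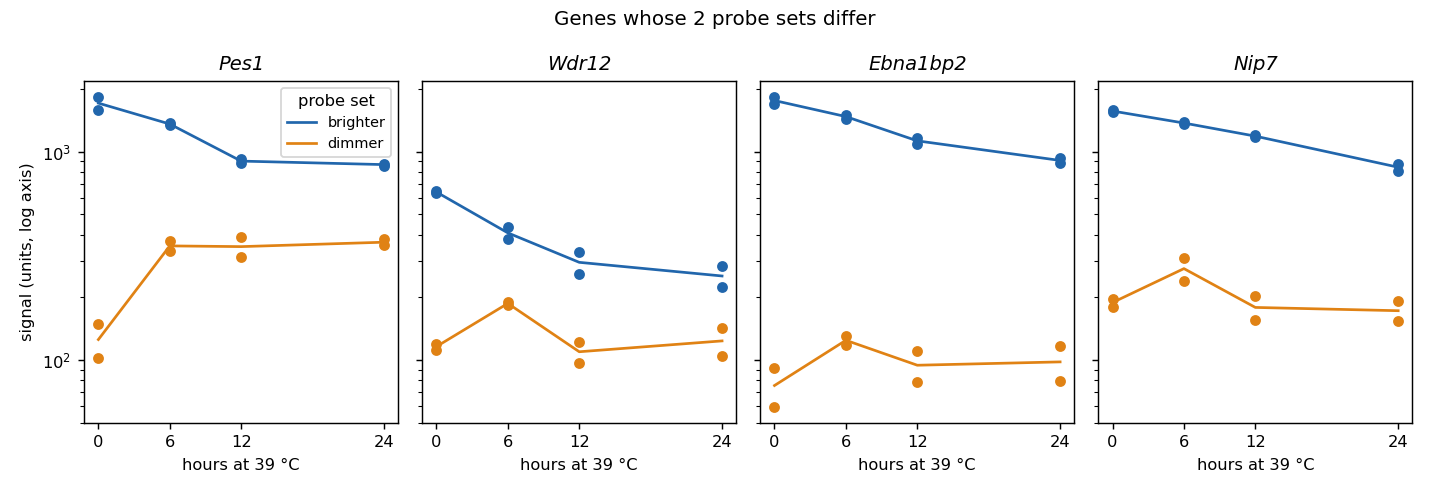
Signal (log axis, arbitrary units) of the brighter (blue) and the dimmer (orange) probe set of Pes1, Wdr12, Ebna1bp2 and Nip7 by hours at 39 °C, with a point for each array and lines through the means of the 2 arrays of a time. In each of the 4 genes the brighter probe set declines, while the dimmer probe set of Pes1 climbs, and its 24 h arrays, at 356 and 379, lie above 102 and 148 at 0 h.

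Grwd1, a histone-binding WD-repeat protein of the nucleolus, had 1344 and 1265 units at 0 h, 1180.1 and 1147 at 6 h, 672 and 781 at 12 h and 636.5 and 499.8 at 24 h. The 6 h arrays were slightly below 0 h and all later ones were far below. Grwd1, which holds both an E-box and an ETS match, fell by 0.83 ± 0.13 at 12 h and 1.18 ± 0.13 at 24 h (adjusted p = 6.39e-05). Wdr74, which works with the ATPase NVL in large-subunit assembly, had 1751.5 and 1576, then 1516 and 1257, 1080.1 and 998, and 818 and 695 at the 4 times. It fell by 0.67 ± 0.13 at 12 h and 1.12 ± 0.13 at 24 h (adjusted p = 7.12e-05), with no overlap between times. Ddx56, a nucleolar helicase, had 1053 and 936, then 920.0 and 685, 591 and 527, and 501 and 445, and fell by 0.81 ± 0.15 and 1.04 ± 0.15 (adjusted p = 0.000334 at 24 h).

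Ddx18, another nucleolar helicase, took a different course. Its signals were 952.5 and 965 at 0 h, 1242 and 1243 at 6 h, 877 and 895 at 12 h and 742 and 701 at 24 h, and no groups overlapped. On the brighter probe set Ddx18 rose by 0.37 ± 0.10 at 6 h (adjusted p = 0.0255), fell by 0.48 from 6 to 12 h (adjusted p = 0.0165) and fell by 0.40 ± 0.10 against 0 h at 24 h (adjusted p = 0.00937). Its second probe set changed by 0.34 ± 0.13 at 6 h, which was not called (adjusted p = 0.103), and fell by 0.62 ± 0.13 at 12 h (adjusted p = 0.00681) and 0.50 ± 0.13 at 24 h (adjusted p = 0.0142). Its 6 h call ended without either 0 h array or replicate 1 of 6 h, and its 24 h call without either 0 h array or replicate 2 of 24 h.

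The other large-subunit factors are again given at 12 and 24 h. Ebna1bp2 fell by 0.63 and 0.94, Noc2l by 0.62 and 0.83, Nop2, a methyltransferase of the large-subunit RNA, by 0.51 and 0.82, Ppan by 0.47 and 0.73, and Nip7, a late processing factor, by 0.39 and 0.88. Nle1 changed by -0.49 at 12 h (adjusted p = 0.0762) and fell by 0.92 ± 0.18 at 24 h (adjusted p = 0.00283). Rrp1b fell by 0.42 ± 0.13 at 12 h (adjusted p = 0.0405) and 0.39 ± 0.13 at 24 h (adjusted p = 0.0416), while its paralog Rrp1, at -0.18 and -0.22, was not called. Of the other 2 probe sets of Rrp1b, 1 was called lower at 6, 12 and 24 h, at -0.53, -0.59 and -0.74, and 1 at no time. Rrs1 was not called against 0 h, at 0.29, -0.31 and -0.28 at 6, 12 and 24 h, but fell by 0.60 from 6 to 12 h. The dimmer probe sets of Ebna1bp2 and Nip7 changed by 0.30 ± 0.26 and -0.12 ± 0.19 at 24 h and were not called, and with the mean of both probe sets Ebna1bp2 changed by -0.18 and -0.32 at 12 and 24 h and Nip7 by -0.24 and -0.50. Both calls of Ebna1bp2 and the 12 h call of Nip7 ended under that setting. At 12 h the calls of Nop2, Nip7 and Noc2l ended without replicate 1 of 0 h or replicate 2 of 12 h, those of Nop2 and Nip7 also without replicate 2 of 0 h. Those of Ppan and Rrp1b at 12 h ended without any single 0 h or 12 h array, that of Rrp1b also without either 24 h array, and that of Rrp1b at 24 h without any single 0 h or 24 h array.

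A further 130 genes of the pathway were listed by role, and 104 were tested. At 24 h 66 of the 104 were called lower and 2 higher, with a median log2 change of -0.48. At 12 h 40 were lower and 2 higher, with a median of -0.29, and at 6 h 14 were lower and 3 higher, with a median of -0.03. Of the 104, 63.5%, 38.5% and 13.5% were thus lower at 24, 12 and 6 h, and 1.92%, 1.92% and 2.88% higher. All genes tested gave 16.6%, 12% and 9.33% lower, and 18.6%, 13.3% and 9.15% higher. Lower at 24 h were 30 of 43 further small-subunit factors, 24 of 35 large-subunit factors, 7 of 12 genes of the RNA exosome, which trims the precursors, and 3 of 5 genes of snoRNP assembly. Of the 9 further genes of transcription by RNA polymerase I, 2 were lower, or 22.2%, near the 16.6% of all genes.

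**Figure D4:**
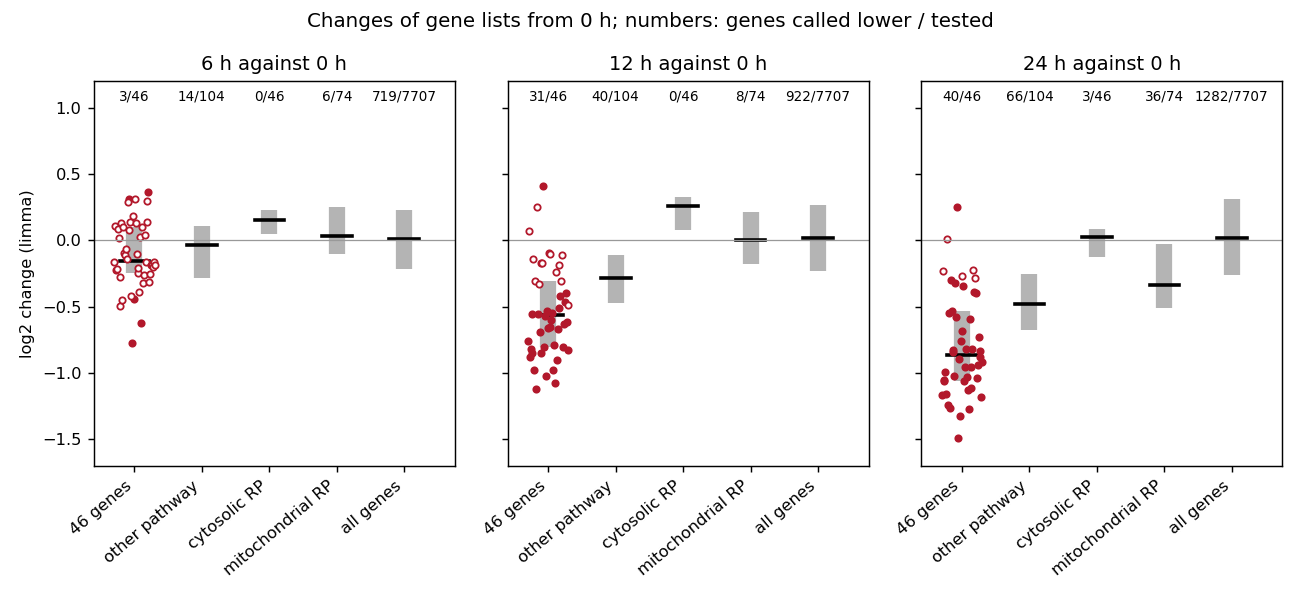
Log2 change at 6, 12 and 24 h against 0 h for the 46 genes (points, filled where called), the further pathway genes, the cytosolic and mitochondrial ribosomal protein genes (RP) and all genes tested; black lines are medians, grey bars run from the lower to the upper quartile, and numbers above give genes called lower over genes tested. The median of the 46 genes goes from -0.15 to -0.86, that of the further pathway genes from -0.03 to -0.48, and that of all genes stays at 0.01 to 0.02.

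The further genes named here are those with the greatest called changes at 12 and 24 h. Dis3, a ribonuclease of the exosome, had 1598 and 1674 units at 0 h, 976 and 868 at 6 h, 794 and 862 at 12 h and 727 and 711 at 24 h. Like Wdr43, it was well below 0 h by 6 h. Dis3 fell by 0.81 ± 0.11 at 6 h (adjusted p = 0.000621), 0.96 ± 0.11 at 12 h and 1.16 ± 0.11 at 24 h. Mphosph6, which works with the exosome, had 419 and 463, then 297.5 and 244, 209 and 209, and 221 and 224, and fell by 0.9999 ± 0.15 at 12 h (adjusted p = 0.000738). Gnl2, a GTPase of the large subunit, had 658 and 711, then 429.6 and 479.9, 346 and 369, and 327 and 383, and fell by 0.89 ± 0.13 at 12 h (adjusted p = 0.000708). Mphosph6 and Gnl2, like Dis3, were already called lower at 6 h, at -0.66 (adjusted p = 0.0101) and -0.57 (adjusted p = 0.0122). At 24 h they stood at -0.92 and -0.91. In all 3, most of the fall seen at 24 h was thus present by 6 h. The 6 h calls of Mphosph6 and Gnl2 ended without either 0 h array, that of Gnl2 also without replicate 1 of 6 h.

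Wdr46, a small-subunit scaffold, had 297 and 258 units at 0 h, 204 and 189 at 6 h, 164 and 187 at 12 h and 74.7 and 58.5 at 24 h, and most of its fall of 1.76 ± 0.18 at 24 h (adjusted p = 3.82e-05) came after 12 h. Eif6, which keeps the large subunit from joining the small one too early, had 6440.2 and 6357.5, then 4891.5 and 4246, 3525 and 3568, and 2796 and 2596, and fell by 1.24 ± 0.10 at 24 h (adjusted p = 6.18e-06). Both were lower on every later array. Eif6 was already called lower at 6 h, at -0.49 (adjusted p = 0.00642), a call that ended without either 0 h array.

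Among the 104 genes 2 rose at 12 and 24 h. Rrp36, an early small-subunit factor, had 586 and 568 units at 0 h, 999 and 839 at 6 h, 939 and 912 at 12 h and 787 and 929.8 at 24 h, and rose by 0.66 ± 0.12 at 12 h (adjusted p = 0.00295) and 0.55 ± 0.12 at 24 h (adjusted p = 0.00556). All later arrays were above 0 h, and the 24 h call ended without replicate 2 of 24 h. Ttf1, which terminates transcription by RNA polymerase I, was dim, with 98.2 and 21.4 at 0 h, 215 and 155 at 6 h, 136 and 159 at 12 h and 173 and 187 at 24 h. Its 2 arrays at 0 h differed more than most. The log2 change of Ttf1 was 1.23 ± 0.37 at 12 h (adjusted p = 0.0346) and 1.48 ± 0.37 at 24 h (adjusted p = 0.0104), and without replicate 2 of 0 h these were 0.49 and 0.75 and were not called. Without either 12 h or either 24 h array the 12 h call also ended, as did the 24 h call without replicate 2 of 24 h.

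Myc itself was already lower at 6 h. Its signal was 1278 and 1112 units at 0 h, 725.5 and 679 at 6 h, 774 and 726 at 12 h and 776.5 and 634 at 24 h. All later arrays were far below 0 h, and the 24 h arrays spanned those of 6 and 12 h. Myc fell by 0.75 ± 0.13 at 6 h (adjusted p = 0.00261), 0.65 ± 0.13 at 12 h (adjusted p = 0.00357) and 0.75 ± 0.13 at 24 h (adjusted p = 0.00105). The 12 h call ended without replicate 1 of 0 h. Whether Myc bears on the 46 genes was not tested.

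Genes for the proteins of the ribosome itself were set beside its assembly factors. Of 46 genes taken as cytosolic ribosomal proteins by the start of their symbols, 3 fell and 3 rose at 24 h, with a median of 0.02. Probe sets with several symbols were left out. At 12 h 8 rose and limma called 0 lower, also 0 at an unadjusted p below 0.05, with a median of 0.26. This median moved with the scaling of the arrays, and was 0.04 at 12 h with quantile normalization, and -0.08 at 24 h with median-centred arrays. Of 74 genes for mitochondrial ribosomal proteins, 36 fell and 5 rose at 24 h, with a median of -0.34, and 8 fell and 10 rose at 12 h, with a median of -0.00. Among all genes tested, 16.6% were called lower and 18.6% higher at 24 h, and 12% and 13.3% at 12 h. For the cytosolic group these shares were 6.52% and 6.52%, then 0% and 17.4%. For the mitochondrial group they were 48.6% and 6.76%, then 10.8% and 13.5%, so its 12 h shares were near those of all genes. The difference between these gene groups was not tested.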

How the data were processed

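The deposited table held a linear intensity, from 0.1 to 38130.2, for each of 22690 probe sets, 64 of them controls. The software that made them is not given in the sources used here, and detection calls were not used here. Symbols came from the platform annotation, updated through gene identifiers to RefSeq names of GRCm38.p6 (20393 probe sets with 1 symbol, 691 with several), and the latter gave no gene a value. Values were taken as log2(intensity + 21.9), the offset being the 20th percentile, which shrinks the changes of dim genes. Arrays were used as deposited, since their median log2 values lay within 0.14, under the limit of 0.3. The 13576 probe sets with a mean log2 of at least the 40th percentile, 6.584, were tested.

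All 8 arrays entered 1 fit with limma 3.58.1 in R 4.3.3 (lmFit with a mean per time, eBayes with a variance trend, 4 residual and 7.22 prior degrees of freedom). Contrasts were 2-sided, Benjamini-Hochberg adjusted over all tested probe sets, with an adjusted p below 0.05 as a call, and the code was tested on simulated data. Each gene is its brightest tested probe set, and a fold is 2 to the power of the log2 change. Signals by array are given for the up to 4 called genes of each role with the greatest change, those called higher and those with probe sets called in opposite directions, and for the 3 greatest falls and rises at 12 and 24 h among the further pathway genes. The members and lists were chosen with earlier results of these data known.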

Additional observations from a re-analysis of the deposited data

How the results depend on the processing

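Of the calls against 0 h, 1 of 3 lower genes at 6 h, 19 of 31 at 12 h and 31 of 40 at 24 h were called lower under all 18 alternative settings, 8 that leave out an array and 10 others. Between neighbouring times it was 6 of 22 from 6 to 12 h and 0 of 8 from 12 to 24 h. With 1 array left out in turn, the lone array left at that time being assumed to vary like the others, genes called lower ranged from 1 to 5 at 6 h, 21 to 33 at 12 h, 33 to 43 at 24 h, 8 to 23 from 6 to 12 h and 0 to 13 from 12 to 24 h. Genes called higher ranged from 0 to 3 at 6 h and from 0 to 1 at 12 h and at 24 h, and genes changed over the 4 times by limma's F-test, 44 of 46 as reported (42% of all genes), from 40 to 44. Called probe sets ranged from 835 to 2998 at 6 h (2441 as reported), 1518 to 4147 at 12 h (3257), 2598 to 5201 at 24 h (4472), 323 to 1547 from 6 to 12 h (1130) and 83 to 1650 from 12 to 24 h (934). Higher genes at 6 h numbered 1 with median-centred arrays, without the filter and without the variance trend, and 0 with only the 2 times compared; at 24 h they numbered 0 with the first 3 and with the mean of a gene's probe sets. From 6 to 12 h, called probe sets were 644 without the filter, 240 with only the 2 times and 606 without the trend, and lower genes 9 with only the 2 times. From 12 to 24 h, lower genes were 5 without the filter and 0 without the trend, and probe sets 529 and 369. The mean of its probe sets turned Pes1 to 0.52 at 6 h, 0.22 at 12 h and 0.23 at 24 h. Median-centring moved the share of called probe sets that were higher from 50.5% to 40.4% at 12 h, from 52% to 37.5% at 24 h and from 54.8% to 42.2% from 12 to 24 h. Same-numbered arrays of different times deviated together with correlations of 0.0496 to 0.1798, 2 of 6 over 0.1, so the numbers were not taken as pairs; with the replicate block 5, 32, 40, 27 and 11 genes were called lower at 6, 12 and 24 h, from 6 to 12 h and from 12 to 24 h, and 44 changed over time. Apart from the constructions named, the cause of these moves was not tested. No group of 2 arrays could show an outlying array, and signals near background limit dim genes such as Rrp12 and Ttf1.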

Other observations

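Among the further pathway genes, chosen after their values were seen, 2 with roles in the small subunit were already low at 6 h. Ddx52, a helicase of early small-subunit assembly, had 955 and 959 units at 0 h, 449 and 569.8 at 6 h, 672 and 697 at 12 h and 606 and 648 at 24 h. Both 6 h arrays were below all later ones. Ddx52 fell by 0.89 ± 0.13 at 6 h (limma, adjusted p = 0.00101), and the rise of 0.42 ± 0.13 in its log2 level from 6 to 12 h was not called (adjusted p = 0.0644). Riok2, a kinase of late small-subunit assembly, had 423 and 504 units at 0 h, 193 and 326 at 6 h, 259.9 and 254 at 12 h and 237 and 231 at 24 h. The 6 h arrays of Riok2 lay far apart, and both 24 h arrays were slightly below both 12 h arrays. Riok2 fell by 0.82 ± 0.20 at 6 h (adjusted p = 0.0168), a call that ended without either 0 h array or replicate 1 of 6 h. It fell by 0.79 at 12 h and by 0.92 at 24 h, and the 24 h call ended without replicate 2 of 0 h.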
